A study of Mus musculus with 2 samples.

Results

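Periportal hepatocytes were studied here as the cells of 2 mouse liver libraries with the highest summed level of Cyp2f2, Hal and Sds. Barcodes entered the gate with 500 or more genes, 5000 or more UMIs (unique molecular identifiers, each standing for 1 captured transcript) and no more than 30% mitochondrial UMIs. They also needed at least 100 Alb UMIs per 10000 and under 2 per 10000 for the sum of Ptprc, Stab2, Clec4f and C1qa, genes of blood, endothelial and Kupffer cells. A periportal score summed Cyp2f2, Hal and Sds per 10000 UMIs, and a pericentral score summed Cyp2e1, Cyp1a2 and Cyp2c29. Members were in the top 15% of the periportal score of their library and not in the top 15% of the pericentral score. The rule found 691 members among 4807 gated hepatocytes and 27010 barcodes: 205 of 1457 gated cells in the DDC library and 486 of 3350 in the DDC and cMet library.

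The liver lobule is divided along the path of the blood. Hepatocytes beside the portal vein receive oxygen- and nutrient-rich blood and are known for urea synthesis, gluconeogenesis and amino acid breakdown, whereas those beside the central vein, under Wnt signalling, make glutamine, bile acids and drug-metabolizing P450 enzymes. Bile ducts lie in the portal tract, so the periportal side is also where injury by DDC, a diet that blocks haem synthesis and damages the ducts, is known to be centred.

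Both libraries held cells isolated by liver perfusion and run with 10x Chromium 3' chemistry (version 3). The DDC library pooled wild-type mice at day 0, as normal liver, with Sox9-EGFP mice, which carry a reporter of Sox9-positive cells, after 2 weeks of DDC. The DDC and cMet library pooled day 0 mice with mice after 5 months of DDC and cMet, the gene of the MET receptor; these tumour-model mice are given in the protocol as Sox9-CreERT2:Rosa26-mTmG, in which Cre driven from Sox9 switches a membrane colour. There were 2 mice per time in each pool. No label ties a barcode to a mouse or a time. Each library therefore counts as 1 sample that mixes untreated and treated liver, and library, genotype, treatment and age cannot be told apart. With 1 library per group no test between groups exists, and values are given with intervals that cover counting error only.

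The genes whose levels chose the cells differ in the letters just before their starts. The following windows of 100 or 250 bases, from RefSeq (GRCm38.p6), are shown because they belong to genes of both scores and to Mup3, by which the members are divided further on, and Mup21, the highest of the genes above the rest in both libraries. Each runs 5′ to 3′ on the gene's strand and ends at the base before the start. Capitals mark words found on either strand. One is CTTTGAA, a word that TCF/LEF factors of the Wnt pathway are known to bind. The other is TATAAA, a core promoter word.
Cyp2f2 (chr7:27119855-27119954, plus strand): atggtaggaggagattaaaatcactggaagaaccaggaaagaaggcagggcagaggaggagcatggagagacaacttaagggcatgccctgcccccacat
Hal (chr10:93488668-93488767, plus strand): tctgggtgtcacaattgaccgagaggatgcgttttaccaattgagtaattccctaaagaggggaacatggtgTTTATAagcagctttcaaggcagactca
Cyp2e1 (chr7:140763569-140763818, plus strand): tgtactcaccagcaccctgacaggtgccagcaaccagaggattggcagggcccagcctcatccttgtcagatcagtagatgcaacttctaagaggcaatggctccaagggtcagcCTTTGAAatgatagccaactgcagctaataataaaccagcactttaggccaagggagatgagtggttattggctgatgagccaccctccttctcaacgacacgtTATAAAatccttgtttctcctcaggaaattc
Cyp1a2 (chr9:57683656-57683905, minus strand): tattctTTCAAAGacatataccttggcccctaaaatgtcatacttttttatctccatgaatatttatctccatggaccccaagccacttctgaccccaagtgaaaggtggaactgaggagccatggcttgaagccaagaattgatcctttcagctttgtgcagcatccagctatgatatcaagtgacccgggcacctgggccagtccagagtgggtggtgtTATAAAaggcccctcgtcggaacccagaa
Mup3 (chr4:62087318-62087417, minus strand): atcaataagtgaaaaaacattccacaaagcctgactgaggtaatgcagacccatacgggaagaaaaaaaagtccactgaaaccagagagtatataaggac
Mup21 (chr4:62150842-62150941, minus strand): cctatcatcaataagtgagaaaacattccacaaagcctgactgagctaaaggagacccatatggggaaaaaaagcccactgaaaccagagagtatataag
Over the 250 bases before the start, CTTTGAA was found in 2 of 3 pericentral score genes, Cyp2e1 and Cyp1a2, and in neither Cyp2f2 nor Hal. It was found in 1 of 15 further periportal genes with a window (Igf1), in 2 of 18 further pericentral genes (Aldh1a1 and Gstm3) and in 5.19% of all 27025 genes of the table. TATAAA was in all 3 pericentral score genes, in Hal and in 14.3% of all genes. It was in 1 of 15 further periportal genes and 4 of 18 further pericentral genes. Sds had no window. GGGCGGG was in 4 of 15 and 6 of 18 further genes, in no score gene and in 25.7% of all genes. Words of HNF1, HNF4, C/EBP and CRE were also sought, and only that of HNF4 was found, in Cyp3a11. The 250-base windows of Mup3 and Mup21 were identical at 229 aligned bases, 89.5% of the alignment, the highest share among the 13 Mup genes set against Mup3. These are letter matches and not binding sites, and likeness of the windows does not measure likeness of the transcripts. Reads of Mup genes may be split between copies, which was not tested.

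Members were chosen by these score values, which are therefore a description. In the DDC library the members' median score was 10.3 per 10000, between 7.52 and 43.6, and that of the rest was 2.54. In the DDC and cMet library the members' median was 31.1, between 25.5 and 58.9, and that of the rest was 8.60. The lowest member and the highest cell left out on this score had 7.52 and 7.51 in the DDC library and 25.5 each in the other, so the limit lies on a slope and not in a gap. Cyp2f2, a P450 enzyme of the portal side of the lobule, gave 49.9% of the members' score UMIs in the DDC library and 59.2% in the DDC and cMet library. Hal, which begins histidine breakdown, gave 14.0% and 14.1%. Sds, which deaminates serine, gave 36.1% and 26.7%, against 56.0% and 51.7% in the rest of each gate. After each cell was thinned to 5000 UMIs, all 3 genes were seen together in 62 of 205 members (30.2%) of the DDC library and in 403 of 486 (82.9%) of the other.

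**Figure D1:**
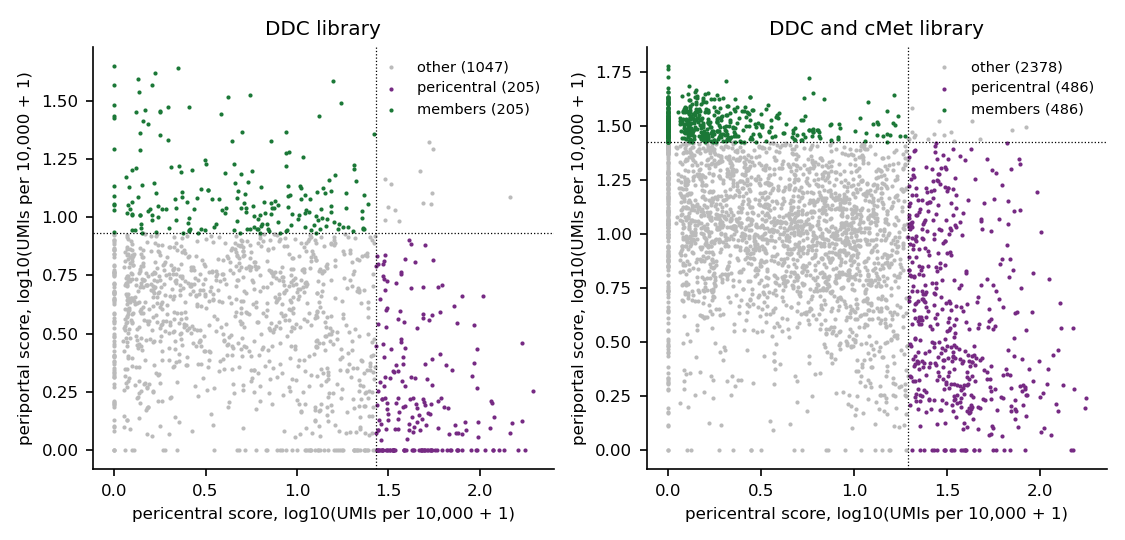
Periportal against pericentral score of each gated cell (log10 of UMIs per 10000 plus 1), 1 point per cell, with dotted lines at the limits of the top 15%. The 205 members of the DDC library and the 486 of the DDC and cMet library lie above the horizontal and left of the vertical line, with no gap at either line.

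The libraries held 104523363 and 186997180 UMIs in all, and the members 7643654 and 15329429. Members were somewhat shallower than the rest of their gate, with medians of 35002 against 41562 UMIs in the DDC library and 30647 against 34714 in the other. Their median mitochondrial share was 7.5% against 7.01%, and 14.9% against 9.82%. The part of depth and mitochondrial share in the ratios below was not tested. Apoa1, Ttr, Serpina1c and Hnf4a, hepatocyte markers outside the rule, were all detected in both sets of members. Among the non-hepatocyte markers, 10 Kupffer cell genes summed to 98.1 CPM in members and 105 CPM in the rest of the DDC library, and to 168 and 161 CPM in the other; 8 endothelial genes summed to 94.7 and 109 CPM, and to 90.0 and 86.3 CPM, some of which the gate itself used. T cell genes summed to under 1 CPM in both sets of members, with Cd3d and Cd8a at 0. The 4 erythroid genes summed higher in members of both libraries, with 16.9 against 7.49 CPM and 60.7 against 33.3 CPM; their part in the results was not tested. The libraries shared 50 barcodes, none of them gated.

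Periportal genes that the rule did not use were higher in the members of both libraries. UMIs were summed over the members and over the rest of the gate, scaled to a total of 1000000 (CPM), and compared as a log2 ratio. Of 24 such genes, 22 had a ratio above 0 in the DDC library, with a median of 0.67, and 7 were at least 2-fold higher. In the DDC and cMet library 21 were above 0, the median was 0.86, and 9 were at least 2-fold higher. Over all genes tested, with at least 50 UMIs, 0.832% were at least 2-fold higher and 4.93% at least 2-fold lower in the DDC library, with a median of -0.15. For the DDC and cMet library these shares were 2.92% and 15.5%, with a median of -0.27. No gene of the list was 2-fold lower in either library.

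Genes of nitrogen disposal formed the first group. Arg1, which cleaves arginine to urea, stood at 761 CPM in members and 346 in the rest of the DDC library, a log2 ratio of 1.14 (95% interval 1.09 to 1.18). The second library had it at 1708 and 805 CPM, a ratio of 1.08 (1.06 to 1.10). Members were thus about equally far above the rest in both libraries, although the rest of the second library lay above the members of the first. Cps1, the entry enzyme of the urea cycle, had 1527 against 923 CPM and 2485 against 1128 CPM, ratios of 0.73 and 1.14. Ass1 and Asl, which build and split argininosuccinate, had ratios of 0.66 and 0.43 in the DDC library, with 0.98 and 0.96 for the second library. Gls2, the liver glutaminase that feeds ammonia to the cycle, had 122 against 55.5 CPM and 319 against 125 CPM, ratios of 1.13 and 1.35. Over the 11 genes of the urea cycle and glutamine list, all 11 were above 0 in the DDC library and 10 in the other, with medians of 0.59 and 0.63. The exception was Nags, which makes the activator of Cps1, with 30.7 against 44.8 CPM in the DDC and cMet library. In the DDC library Ass1 and Arg1 were also above the rest in pericentral-score cells, the top of the opposite score. Ass1 had 2096 CPM in members, 1692 in those cells and 1322 in the rest, whereas Gls2 had 35.0 CPM in those cells. Against them the list's median was 0.31, with 2 of 11 genes below 0 and only Gls2 at least 2-fold higher. For the second library it was 0.82, with 2 below 0 and 3 at least 2-fold higher.

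Gluconeogenic genes were higher by a similar amount. Pck1, which commits oxaloacetate to glucose, had 1239 CPM in members and 597 in the rest of the DDC library, and 3123 and 1493 CPM in the other, ratios of 1.05 (1.02 to 1.09) and 1.07 (1.05 to 1.08). G6pc, which releases free glucose, had 338 against 210 CPM and 263 against 117 CPM, ratios of 0.68 and 1.17. Fbp1, which acts between them, had ratios of 0.66 and 0.68. All 11 genes of the list were above 0 in both libraries, with medians of 0.55 and 0.60.

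Other genes of the periportal list included its 3 widest ratios. Etnppl, a phosphoethanolamine lyase, had 41.3 against 8.59 CPM in the DDC library and 212 against 61.0 CPM in the other, ratios of 2.27 and 1.80. Hsd17b6, a steroid dehydrogenase, had 151 against 40.9 CPM and 468 against 276 CPM, ratios of 1.89 and 0.76. Mfsd2a, a lysophospholipid transporter, had 17.1 against 5.61 CPM and 86.3 against 16.2 CPM, ratios of 1.61 and 2.41. Gldc of the glycine cleavage system had ratios of 0.85 and 1.35, Aldh1b1 1.09 and 1.02, and Uroc1, the step after Hal, 0.69 and 0.90. Igf1, a growth factor secreted by the liver, had ratios of 0.76 and 0.71. Apoa4, Pigr and Serpina1b lay between 0.24 and 0.49 in both libraries. C2 was lower by 0.30 in both libraries (79.4 against 97.8 CPM, and 81.5 against 100 CPM). Sdsl was level in the DDC library (41.3 CPM on both sides) and had a ratio of 0.58 in the other; Ctsc, Fads1, Hsd17b13 and Cdh1 stayed within 0.38 of 0.

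For Hsd17b6, shares of cells gave the same order as the sums. After thinning to 5000 UMIs, Hsd17b6 was seen in 41.5% of members (exact 95% interval 34.6 to 48.5), 12.2% of the rest and 1.5% of the 467 immune or endothelial barcodes of the DDC library, which should lack it. The second library had it in 83.1% (79.5 to 86.3), 62.1% and 9.13% of 1468 such barcodes. Unthinned, its shares were 71.7%, 33.1% and 5.78%, and 97.9%, 88.5% and 22.7%. Those immune or endothelial barcodes had medians of 19554 and 13634 UMIs.

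Pericentral genes were lower in the members, and more so in the DDC and cMet library. Of 28 genes outside the rule, 25 were below 0 in each library, with medians of -0.62 and -1.90. At least 2-fold lower were 9 in the DDC library and 18 in the other, against 4.93% and 15.5% of all genes tested. Car3 was the only one at least 2-fold higher, in the DDC library. The difference between the libraries was not tested. Against the pericentral-score cells, the top 15% of the opposite score without the 13 and 16 cells in the top of both scores (205 and 486 cells), 23 of 28 were 2-fold lower in the DDC library and 19 of 26 in the other, where 1.69% and 10.2% of all genes tested were. In the same comparison 10 and 12 of the 24 periportal genes were 2-fold higher, against 1.64% and 2.47% of all genes tested. Both sides of this comparison were chosen by score genes. Genes that vary with those are parted by the choice itself, so these counts are a description.

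Cyp7a1, which controls the classic route from cholesterol to bile acids, had 6.02 CPM in members, 34.6 in the rest and 147 in pericentral-score cells of the DDC library, a ratio of -2.52 to the rest (-2.98 to -2.10). In the other library it had 6.39, 112 and 272 CPM, a ratio of -4.13 (-4.43 to -3.84). Oat, which feeds ornithine carbon to glutamate, had 4.45 against 25.0 CPM and 3.33 against 15.9 CPM, ratios of -2.49 and -2.26. Few members of either library held these genes after thinning: 2.93% and 3.29% for Cyp7a1, and 1.95% and 1.03% for Oat. Slc1a2, a glutamate transporter of the outermost pericentral layer, had 4 UMIs in all members of the DDC library against 345 in the rest, a ratio of -3.67 (-5.55 to -2.30), and 2 against 51 UMIs in the other, a ratio of -1.94 (-5.03 to -0.02). Lgr5, a Wnt pathway receptor, had no UMI in the 486 members of the DDC and cMet library, so its ratio of -1.39 there is a bound set by 3 UMIs. Tbx3 and Axin2, Wnt targets, had ratios of -1.43 and -0.65 in the DDC library, with -5.23 and -3.13 for the second library, all from few UMIs.

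Enzymes of broad pericentral expression parted the libraries. Gstm3, a glutathione transferase, had 533 against 559 CPM in the DDC library, a ratio of -0.07, and 36.3 against 296 CPM in the other, a ratio of -3.03 (-3.15 to -2.91). Cyp2a5 had 611 against 711 CPM and 230 against 1417 CPM, ratios of -0.22 and -2.62. Cyp3a11 had 1184 CPM on both sides in the DDC library and 977 against 1652 CPM in the other. Equal sides did not mean a flat course. Over 5 equal bins of gated DDC-library cells by periportal score, Cyp3a11 was 2623, 974, 690, 514 and 1247 CPM. Gstm3 and Cyp2a5 were also highest in the lowest of these bins, with 1002 and 1219 CPM, against 534 and 596 CPM in the top bin. Rgn, Gulo, Lect2, Aldh3a2, Cyp2c37 and Cyp2c50 lay between -0.18 and -1.18 in the DDC library and between -1.87 and -3.61 in the other; Ang and Gstm1 were at -0.12 and -0.04, and at -1.53 and -1.75. Lhpp and Slc13a3 were low on both sides. Akr1c6, Aldh1a1, Cyp27a1 and Rhbg had ratios from -1.09 to -0.02 in both libraries, while Cyp2c54 (0.14 and -0.87) and Slc22a3 (-0.75 and 0.33) changed sign.

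Glul, the glutamine synthetase that marks the last cells before the central vein, ran in opposite directions. In the DDC library it had 27.3 CPM in members, 73.5 in the rest and 323 in pericentral-score cells, a ratio of -1.43 to the rest (-1.63 to -1.23). The second library had 60.7, 32.2 and 76.9 CPM, a ratio of 0.92 (0.81 to 1.02). It was seen in 21.4% of thinned members and 11.7% of the rest there, against 59.1% of immune or endothelial barcodes. Car3, a carbonic anhydrase of the pericentral list, was higher in members of both libraries, with 419 against 199 CPM and 1725 against 1039 CPM, ratios of 1.08 and 0.73.

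**Figure D2:**
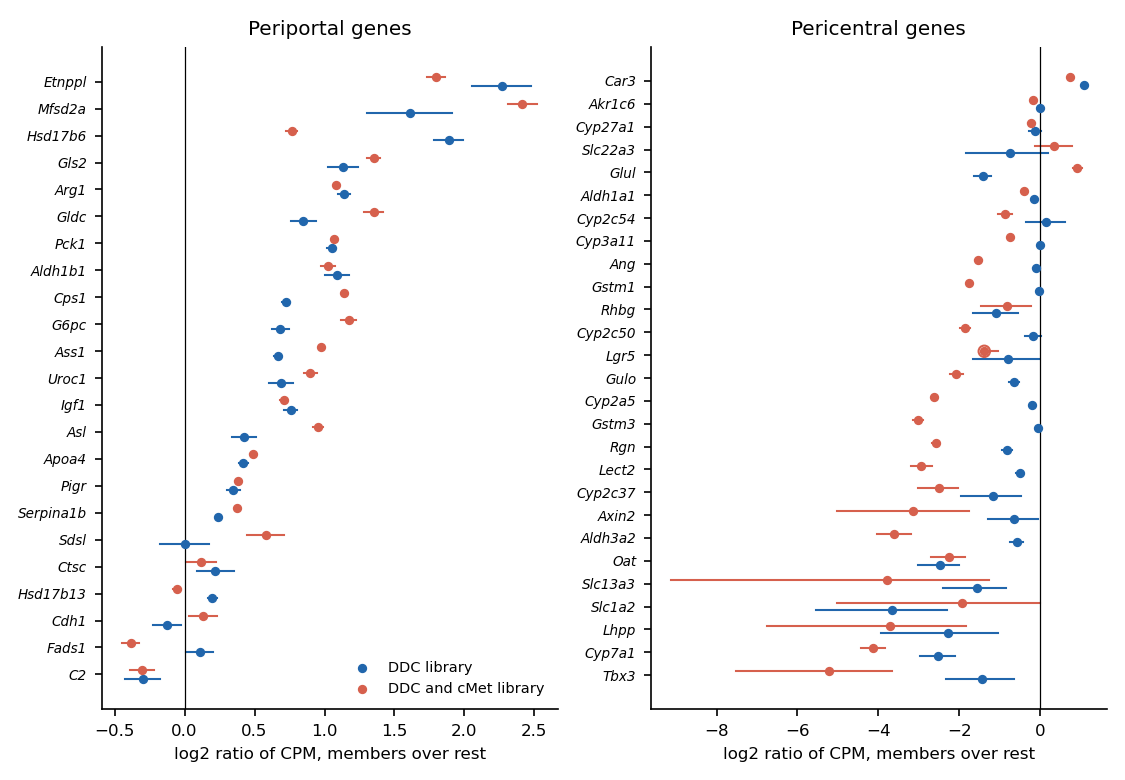
Log2 ratio of CPM in members over the rest of the gate for genes of the periportal list (left) and the pericentral list (right), 1 point per library with its 95% counting interval; a ring marks Lgr5, which had no UMI in members of the DDC and cMet library. Most periportal genes lie right of 0 in both libraries, and most pericentral genes lie left of 0, farther in the DDC and cMet library.

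Along the score the 2 gene groups ran differently. Gated cells were divided into 5 equal bins by periportal score. Of the 24 periportal genes, 18 were highest in the top bin in the DDC library and 19 in the other, where 12.8% and 19.8% of all genes tested were. Pck1 climbed at each step, from 293 to 477, 658, 871 and 1106 CPM in the DDC library and from 861 to 1288, 1589, 1974 and 2974 CPM in the other. Of the 28 pericentral genes, 10 and 22 were lowest in the top bin, but so were 46.7% and 59.2% of all genes tested. Oat dropped at the first step, from 92.8 to 9.36 CPM and from 46.3 to 6.91 CPM, and stayed low. Hamp, the iron hormone hepcidin, stayed between 3156 and 3694 CPM over all 5 bins of the DDC library; in the other it stayed between 5373 and 6554 CPM over 4 bins and was 1576 CPM in the top one.

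**Figure D3:**
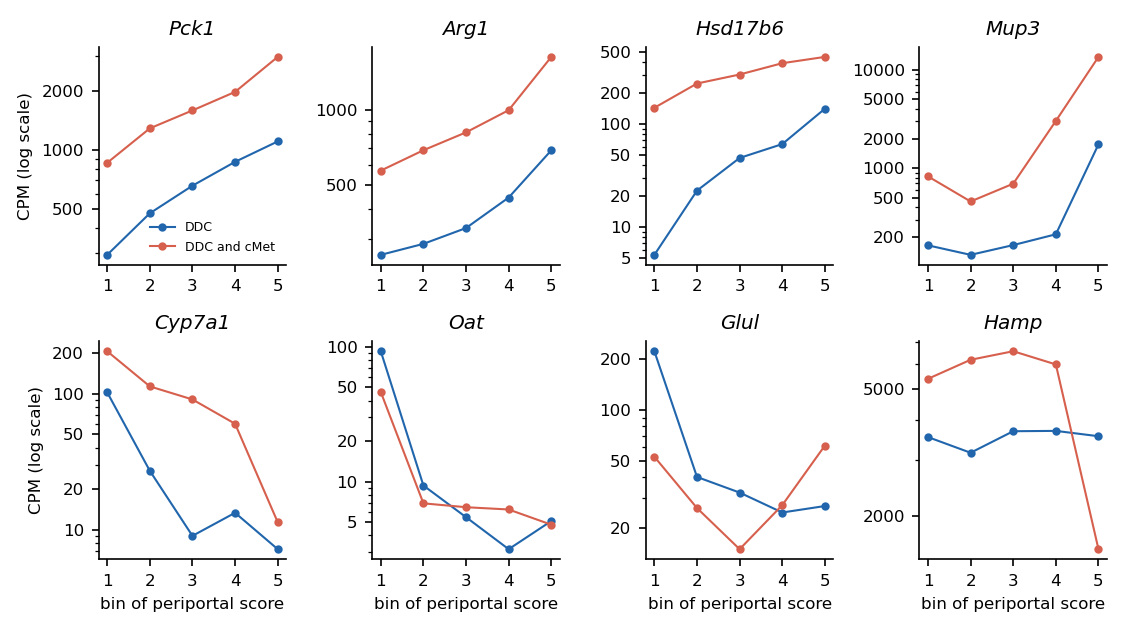
CPM (log axis) of 8 genes in 5 equal bins of gated cells by periportal score, 1 line per library. Pck1, Arg1 and Hsd17b6 climb over the bins, Mup3 climbs in the last bin (DDC library) or from bin 3 on (DDC and cMet library), Cyp7a1 and Oat drop, and Glul and Hamp differ in shape between the libraries.

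Mup3, which encodes a major urinary protein known to be higher in males, divided the cells into 2 sets. It had 2309 CPM in members and 194 in the rest of the DDC library, a ratio of 3.58, and 14437 and 1818 CPM in the other, a ratio of 2.99. At a limit of 30 UMIs per 10000, set after its distribution was seen, 40 of 205 members (19.5%, exact 95% interval 14.3 to 25.6) and 25 of 1252 other cells (2.00%, 1.30 to 2.93) were Mup3-high in the DDC library. In the DDC and cMet library 461 of 486 members (94.9%, 92.5 to 96.6) and 414 of 2864 other cells (14.5%, 13.2 to 15.8) were. Few members lay near the limit: 3 and 8 had between 10 and 30 per 10000, and 4 and 0 between 30 and 50, but 270 other cells of the DDC and cMet library had between 10 and 30. Those 40 cells held 91.1% of the members' Mup3 UMIs in the DDC library. Among pericentral-score cells 6.83% and 18.5% were Mup3-high. Median depth was 20876 UMIs in Mup3-high and 39949 in other members of the DDC library, and the mitochondrial share 14.3% and 6.68%. Whether these sets correspond to the pooled mice or times cannot be told apart.

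**Figure D4:**
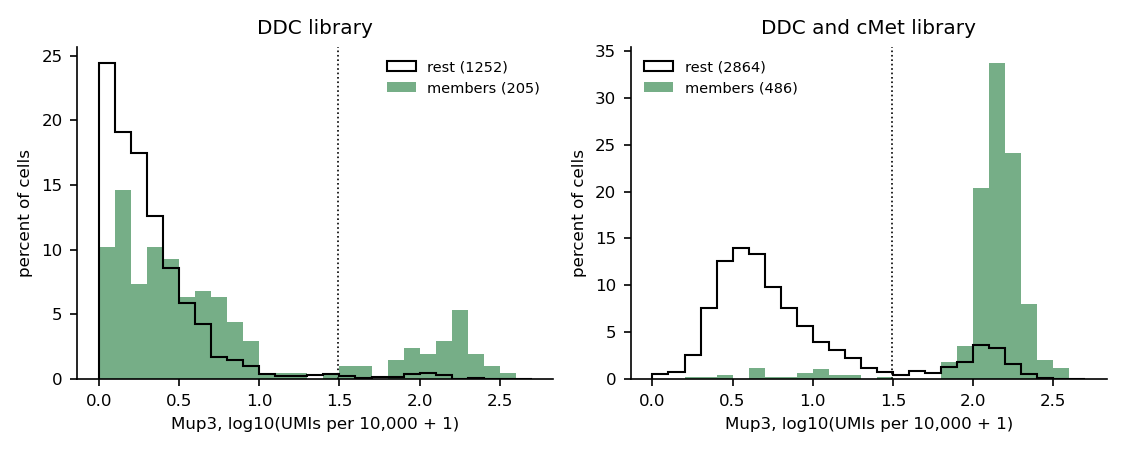
Percent of cells by Mup3 level (log10 of UMIs per 10000 plus 1) in members and in the rest of the gate, with a dotted line at 30 per 10000. Right of the line lie 19.5% of members of the DDC library and 94.9% of those of the DDC and cMet library, against 2.00% and 14.5% of the rest.

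Periportal genes were also compared within the Mup3 sets. Among Mup3-low cells of the DDC library (165 members and 1227 others), 22 of 24 periportal genes were above 0, with a median of 0.57, and 5 were at least 2-fold higher, against 0.383% of all genes tested. Arg1 had a ratio of 1.03, Hsd17b6 1.65 and Pck1 0.85 there, and 8 of 28 pericentral genes were 2-fold lower, against 4.59%. Among Mup3-high cells of that library (40 members and only 25 others), 10 of 22 periportal genes were 2-fold higher, against 2.05%, and 15 of 19 pericentral genes 2-fold lower, against 3.09%. Of those 25 others, 14 were pericentral-score cells, against 205 of 1252 in the whole rest. These counts are therefore largely a comparison with cells chosen for the opposite score. Among Mup3-high cells of the DDC and cMet library (461 members and 414 others), 22 of 24 were again above 0, the median was 0.35 and none was 2-fold higher, against 0.232% of all genes tested. Arg1 had 1741 against 1415 CPM there, a ratio of 0.30, Pck1 a ratio of 0.37 and Hsd17b6 0.44. The pericentral list kept 12 of 21 genes at least 2-fold lower in these cells, against 2.21% of all genes tested, with a median of -1.41, and Cyp7a1 a ratio of -3.96. Glul was at -0.17. With 25 Mup3-low members, that set of the DDC and cMet library is not described.

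Within the members of the DDC library, Mup3-high cells had 1690 CPM of Cyp2f2 and 341 of Hal against 452 and 146 CPM in the other members, while Sds was 376 against 455 CPM. Egfr, the epidermal growth factor receptor, had 602 against 41.3 CPM, and Slc10a1, the bile acid importer of the sinusoidal face, 308 against 101 CPM. Spp1, osteopontin, had 455 against 1757 CPM. Of the periportal genes 6 of 24 were 2-fold higher in Mup3-high members, against 2.86% of all genes tested other than Mup genes, and of the immediate early genes 8 of 12 were 2-fold lower, against 14.4%.

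The genes farthest above the rest in both libraries were led by this family. By the smaller of the 2 libraries' ratios, the 12 were Mup21 (4.06 and 3.15), Mup3, Mup1 (3.35 and 2.86), Ces3b (3.57 and 2.22), Mup17 (1.72 and 1.42), Ugt2b1 (1.41 and 1.59), Mup9 (2.73 and 1.39), Cyp7b1 (1.38 and 2.67), Egfr (1.54 and 1.35), Eif4ebp3 (1.29 and 1.96), Nudt7 (1.18 and 2.03) and Slc10a1 (1.35 and 1.15). Within the Mup3 sets these ratios were smaller. The sets were split on Mup3 itself, so for Mup3 and genes that vary with it, such as other Mup genes, this is partly built in. Among Mup3-low cells of the DDC library Mup21 had 0.24, Egfr 0.16 and Nudt7 0.33, Mup1, Mup9, Mup17 and Cyp7b1 were below 0, and Slc10a1 kept 1.05 and Ces3b 1.0. Among Mup3-high cells of the other library all 12 lay at or below 0.50, with Mup9 at -1.45 and Mup17 at -1.44. Of 11 genes known to be male-biased, 6 of 9 tested were 2-fold higher in the DDC library and 9 of 11 in the other, with medians of 2.21 and 1.90. Over all genes tested these shares were 0.832% and 2.92%. The male-biased medians were -0.58 within Mup3-low cells of the DDC library and -0.02 within Mup3-high cells of the other, for a list that holds Mup genes. Xist was seen in 0 thinned members of either library (exact 95% upper limits of 1.78% and 0.756% for cells with a UMI), and unthinned in 1.46% and 0.412%. Ddx3y of the Y chromosome was seen in 25.9% and 27.4% of thinned members. The rest of each gate was alike, with Ddx3y in 34.1% and 28.7% of thinned cells and Xist in 1 of 1252 and 0 of 2864.

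At the other end, Saa2, an acute phase protein, had 22.6 CPM in members and 149 in the rest of the DDC library, a ratio of -2.72 (-2.95 to -2.51), and 17.4 and 66.2 CPM in the other, a ratio of -1.93 (-2.11 to -1.75). It kept -2.71 among Mup3-low cells of the DDC library and -2.81 among Mup3-high cells of the other. Csad, which makes hypotaurine for taurine, had 107 against 222 CPM and 24.7 against 140 CPM, ratios of -1.06 and -2.51, and kept -1.07 and -1.51 in the same cells. Ubd, an interferon- and TNF-induced ubiquitin-like protein, had ratios of -1.06 and -3.20. Rgn, of vitamin C synthesis, had 75 against 134 CPM and 71.6 against 430 CPM, ratios of -0.84 and -2.59. S100a11, Anxa2 and Tspan8, membrane and calcium-binding proteins of injured and ductal epithelium, had ratios of -0.89, -0.85 and -0.84 in the DDC library, with -3.68, -3.81 and -4.31 for the second library. Clu, Ifrd1, Mfge8, Dsp and Cd47 completed the 12, between -0.78 and -0.73 in the DDC library and between -3.17 and -0.73 in the other.

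Genes of bile duct and progenitor cells were lower in members than in the rest but not lower than in pericentral-score cells of the DDC library. Of 11 tested there, 11 were below 0 and 6 at least 2-fold lower, against 4.93% of all genes tested, with a median of -1.03. Against pericentral-score cells 8 of 8 were above 0, with a median of 1.71. Spp1 had 1585 CPM in members, 3322 in the rest and 152 in pericentral-score cells, and Sox9, the factor the study traced, 80.6, 96.8 and 25.2 CPM. Over the 5 bins Spp1 was 1879, 3880, 3877, 3807 and 1831 CPM, lowest at both ends of the score. In the DDC and cMet library 9 of 9 tested were below 0, with a median of -3.0, and Spp1 had 64.7, 516 and 87.2 CPM. The 7 cholangiocyte markers together summed to 1693 against 3470 CPM and 75.3 against 550 CPM, with Krt19 and Krt7 at 0 in the members of the DDC and cMet library. The EGFP reporter, counted in the DDC library only, was seen in 13.7% of thinned members (9.27 to 19.1), 16.9% of the rest, 1.95% of pericentral-score cells and 3.0% of immune or endothelial barcodes. Unthinned, these shares were 42.0%, 40.8%, 10.2% and 6.42%.

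Immediate early, interferon-stimulated, cell division and cholesterol synthesis genes were lower in members than in the rest of the gate of the DDC and cMet library, while heat shock chaperones were not: 9 of 10 of those were above 0 and 3 at least 2-fold higher, with a median of 0.37, against a median of -0.32 in the DDC library. Over all genes tested, 15.5% were at least 2-fold lower and 2.92% higher in the DDC and cMet library, and 4.93% lower in the DDC library. All 12 immediate early genes were at least 2-fold lower in the DDC and cMet library, with a median of -1.99. Fos had 140 against 543 CPM there, and Klf6 16.1 against 161 CPM. In the DDC library Fos had 222 against 293 CPM and Klf6 125 against 192 CPM, and 1 of 12 was 2-fold lower, with a median of -0.36. Interferon-stimulated genes were 2-fold lower for 11 of 13 there, with a median of -1.97, and for 2 of 13 in the DDC library, with a median of -0.31. Of 15 genes of mitosis and DNA replication, 13 were 2-fold lower in the DDC and cMet library, with a median of -2.83. Mki67 had 0.913 against 16.7 CPM there. In the DDC library it was seen in 5.37% of thinned members and 5.43% of the rest, against 8.57% of immune or endothelial barcodes; the list's median was 0.12 there and none was 2-fold lower. Cholesterol synthesis genes were 2-fold lower for 10 of 12 in the DDC and cMet library and 0 of 12 in the other, with medians of -1.35 and -0.16; Hmgcs1, an early enzyme of the pathway, had 39.1 against 187 CPM and 305 against 403 CPM.

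These differences were smaller among Mup3-high cells of the DDC and cMet library but had the same sign. The medians were -0.77 for immediate early genes, -0.81 for interferon-stimulated genes, -2.16 for mitosis and DNA replication and -0.47 for cholesterol synthesis. All genes tested in these lists were below 0 (12, 11, 11 and 12). Nuclear genes of the respiratory chain were close to level in both libraries, with medians of 0.11 and 0.18 over 20 genes and none past 2-fold. Complement and coagulation genes had medians of 0.25 and -0.04 over 21 genes.

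**Figure D5:**
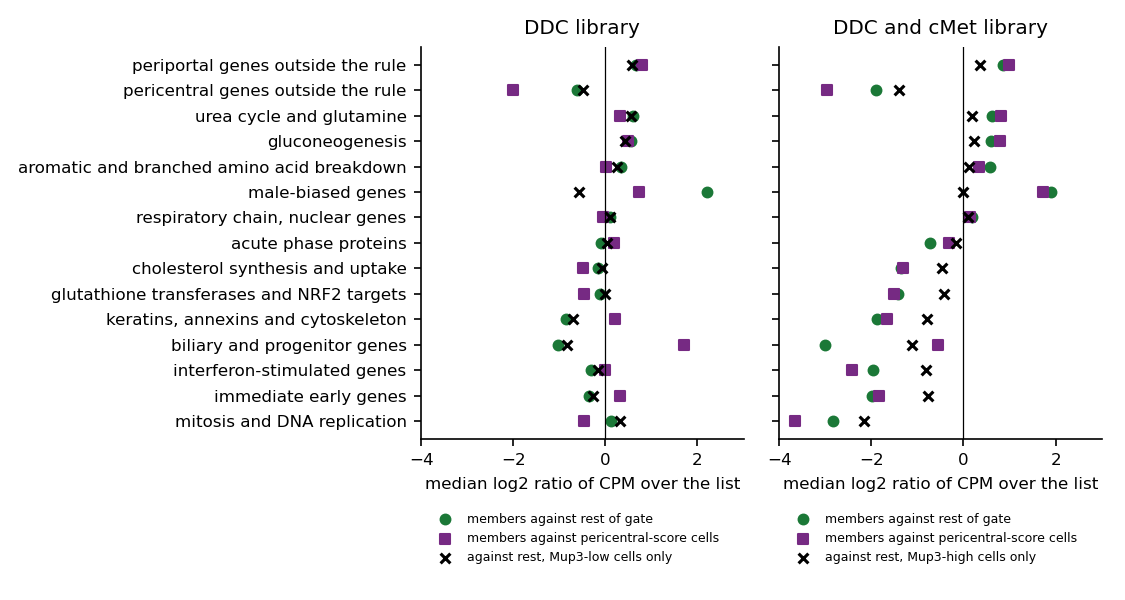
Median log2 ratio of CPM over each of 15 gene lists in the DDC library (left) and the DDC and cMet library (right). Circles compare members with the rest of the gate, squares with pericentral-score cells, and crosses with the rest among Mup3-low (left) or Mup3-high (right) cells. The male-biased list moves to or below 0 at the crosses, and the lists that are low in the DDC and cMet library come closer to 0.

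Some genes differed by more than 1 on the log2 scale between the libraries' ratios; these differences were not tested. Hspb1, a small heat shock protein, had 42.8 against 178 CPM in the DDC library and 19.3 against 15 CPM in the other, ratios of -2.06 and 0.36. Tmsb4x, an actin-binding peptide, had 110 against 297 CPM and 98.0 against 122 CPM, ratios of -1.43 and -0.31. Guca2b, a guanylin-type peptide, S100a6, a calcium-binding protein, and Ccl2, a monocyte-attracting chemokine, were low in members of both libraries, with ratios of -2.36, -1.79 and -1.5 in the DDC library and the lower ratios of -3.57, -4.03 and -3.48 in the second. Against pericentral-score cells of the DDC library Guca2b, S100a6, Ccl2 and Tmsb4x had the opposite sign. Sult5a1, a sulfotransferase, was high in both, with 11.4 against 3.78 CPM and 72.3 against 6.89 CPM, ratios of 1.59 and 3.39. Mup16 (1.5 and 2.74), Hectd2os (0.71 and 2.70) and Cyp4a12a, a male-biased fatty acid hydroxylase (3.01 and 1.90), were also above 0 in both. Members of the DDC and cMet library were low in Stmn1, a tubulin regulator of dividing cells (3.07 against 54.0 CPM, a ratio of -4.14, against 0.28 in the DDC library). Slpi, a protease inhibitor, had -3.92 there and -0.28 in the DDC library, and Rdh9, a retinol dehydrogenase, -3.80 and -0.02.

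Members of the DDC and cMet library were compared with members of the DDC library last. Of 9883 genes tested, 4.83% were at least 2-fold higher and 16% at least 2-fold lower, with a median of -0.33. The 2 sets of members differ in their share of Mup3-high cells (94.9% against 19.5%). Among Mup3-high members alone 557 genes were at least 2-fold lower in place of 1585, and the median of the mitosis and DNA replication list was 0.60 in place of -4.09. Between all members, 9 of the 24 periportal genes were 2-fold higher and none 2-fold lower, with a median of 0.75. Between the rests of the 2 gates 8 were higher and 1 lower, against 5.62% and 11.4% of all genes tested, with a median of 0.64. The members' periportal levels thus differed by about as much as those of all other gated cells.

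Among the 10 genes farthest up were Mup11 (442 against 1.05 CPM, a log2 ratio of 8.72), Mup14 (5.50), Hist2h2aa1 (5.22), Dbp (101 against 2.75 CPM, 5.2), Mup18 (4.73), Thrsp (1853 against 85.0 CPM, 4.45), Gstp1 (2386 against 113 CPM, 4.40), Mup12 (4.25) and Usp2 (4.14). Dbp and Usp2 are clock-controlled, and Thrsp is a lipogenic regulator. Between the rests the same genes had ratios from 3.58 to 8.64, so the difference was also there outside the members. Hist2h2aa1 and Gstp1 belong to families with near-identical copies, and their split between copies is uncertain.

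The 10 farthest down were Serpina7, a thyroxine carrier (1.04 against 103 CPM, -6.63), Sprr1a (0.783 against 76.1 CPM, -6.60), Ly6d (-5.84), Plet1 (-5.37), Defb1 (-5.30), S100a11 (8.48 against 280 CPM, -5.04), Lcn2, an iron-siderophore-binding injury protein (58.6 against 1850 CPM, -4.98), Anxa2 (-4.93), Stmn1 (-4.87) and Cpe (-4.78). Between the rests they had ratios from -3.30 to -0.46, each nearer 0 than between members. The 10 were picked as the lowest between members, so this is partly built in. The biliary list had a median of -3.56 between members, with 8 of 8 at least 2-fold lower, against 16% of all genes tested. Between the rests its median was -1.92.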

How the data were processed

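UMI counts per gene and barcode were deposited by the authors as 10x matrices of whole numbers with no normalization; gene and barcode lists are text. Per the file headers Cell Ranger 5.0.1 wrote the matrices, while mm10, Seurat 4.0.1 and Cell Ranger 6.0.1 stand in the submitters' processing notes; which version applies was not settled. No source used here says how barcodes were chosen, and doublets were not called.

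Members, the rest of the gate and pericentral-score cells were summed and scaled to CPM. Log2 ratios were taken for genes with at least 50 UMIs over both sides; a side at 0 was set to 3 UMIs, a bound. Intervals are 95%: exact conditional binomial for ratios and Clopper-Pearson for shares, for counting error only. Genes at or past 2-fold were counted, without the rule's genes and reporters. Shares used cells thinned to 5000 UMIs. Named genes were the 12 highest and 12 lowest by the smaller ratio of both libraries (at least 50 CPM on a side; no rule, mitochondrial, ribosomal, unnamed or other cell types' marker genes), 6 and 6 per library that differed from the other by over 1, 10 and 10 between libraries, up to 4 per list, and both zonation lists; a few genes so chosen are left out of the text and of the plot, while counts and medians include them; genes named for the flow of the text beyond this (among them Nags, Fos, Spp1, Sox9, Fbp1, Xist and Ddx3y) belong to the lists. The members and lists were chosen with earlier results of these data known. Promoter windows were 250 bases from RefSeq; 15 of 24 periportal and 18 of 28 pericentral genes had one. Scripts were tested on simulated data. Alternatives were the score limits and genes, cell filter, scaling, UMI minimum, depth, EGFP cells and, chosen after seeing the data, the Mup3 sets. Python 3.11.15 was used with pandas 2.3.3, scipy 1.17.1, matplotlib 3.10.9, numpy 2.4.6 and Biopython 1.88 (alignment of Mup windows).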

Additional observations from a re-analysis of the deposited data

Results flagged for a closer look

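Among the genes of the lists, the markers and the named genes, 4 were at least 2-fold higher in members of one library and at least 2-fold lower in the other, and 1 list had medians of opposite sign that were at least 0.5 from 0 in both. Smaller differences of opposite sign, such as that of Glul, are not counted here. With 1 library each, these differences were not tested. Hspa1a, an inducible heat shock chaperone, had a log2 ratio of -5.19 in the DDC library (4 UMIs in all members, 987 in the rest) and of 1.69 in the DDC and cMet library. Its neighbour and near-copy Hspa1b had -2.54 and 1.16, from 13.9 against 80.6 CPM and 96.3 against 43.1 CPM. Pericentral-score cells held most of both genes in the DDC library, with 130 CPM of Hspa1a and 482 CPM of Hspa1b, and the Mup3-high cells of the other library gave ratios of 0.47 and 0.19. Cyp4a14, a fatty acid hydroxylase, had -1.67 and 2.66, from 4.45 against 14.1 CPM and 13.8 against 2.17 CPM. H19, an imprinted fetal RNA, had 1.06 and -3.35, but was seen in 3.41% of thinned members of the DDC library and 2.24% of the rest, so that value rests on few cells. Female-biased genes had a median of 0.53 in the DDC library, where only Cyp4a10 and Acot3 could be tested, and of -3.02 over 6 genes in the other.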

How the results depend on the processing

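Counts of genes past 2-fold depended on the settings: 56 stayed within 1.5 times and 36 did not. The counts are 98 higher and 580 lower in the DDC library, 361 and 1916 in the DDC and cMet library, and 477 and 1585 between members of both. With cells thinned to 5000 UMIs they were 59 and 292, 178 and 1060, and 290 and 676. With a minimum of 200 UMIs they were 58 and 202 in the DDC library, 229 higher in the other and 875 lower between members. With a minimum of 1 UMI they were 1084 and 1034, 1439 higher, and 915 and 3626. Under median-of-ratios scaling 148, 586 and 808 were higher and 917 lower between members. In cells under the median depth 345 were lower in the DDC library, 236 higher in the other and 1020 lower between members. With the top 25% as members 51 and 337 passed in the DDC library. With members chosen by Hal and Sds alone 64 were higher there, and 117 and 686 passed in the other. Against pericentral-score cells 157 and 162 passed in the DDC library and 1066 were lower in the other.

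The Mup3 sets were chosen after seeing the data. Among Mup3-low cells 45 genes were higher in the DDC library. Among Mup3-high cells 63 and 95 passed there, 23 and 219 in the other, and 557 were lower between members. Fewer genes could be tested among Mup3-high cells, 3075 in the DDC library and 9931 in the other. All cells gave 11775 and 12358, so the counts do not share a total.

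Some signs turned. Among Mup3-low cells of the DDC library the ratios were -0.97 for Cyp4a12a, -0.32 for Cyp7b1, -2.03 for Mup1, -1.10 for Mup16, -2.27 for Mup17, -1.18 for Mup9 and -2.15 for Slco1a1, with a male-biased median of -0.58. Among its Mup3-high cells they were -0.61 for Car3, -0.46 for Cyp7b1, -0.27 for Cyp8b1, -0.56 for Hsd3b5, -1.73 for Mup16, -1.86 for Mup17, -0.90 for Mup9, -0.49 for Slco1a1 and -0.84 for Ugt2b1, with medians of -0.29 for male-biased and 0.54 for biliary genes. Only 3 of 15 biliary genes could be tested there, from -0.41 (Plet1) to 2.09 (Sox9). Among Mup3-high cells of the DDC and cMet library the ratios were -0.29 for Cyp8b1, -1.02 for Hsd3b5, -1.44 for Mup17, -0.047 for Mup7, -1.45 for Mup9, -0.18 for Slco1a1 and -0.15 for Ugt2b1, with a male-biased median of -0.019. The mitosis median between Mup3-high members of both libraries was 0.60, with only 40 such members in the DDC library.

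Against pericentral-score cells of the DDC library the ratios were 1.23 for Ccl2, 1.05 for Guca2b, 1.33 for Ier3, -0.68 for Mup16, -0.69 for Mup17, 0.89 for Plet1, 1.40 for S100a6, 1.31 for Tmsb10, 0.31 for Tmsb4x, 0.76 for Ubd and -0.33 for Ugt2b1, with medians of 1.71 for biliary, -0.64 for female-biased and 0.22 for keratin and cytoskeleton genes. In the other library Mup17 was at -0.69 and Mup9 at -0.85. By Hal and Sds alone Ier3 was at 0.25 and the female-biased median at -0.42 in the DDC library, and Ifit2 at 0.12, Rsad2 at 0.58 and Top2a at 0.19 in the other. H19 in the DDC library was at -2.61 in cells under the median depth and -3.54 without cells with an EGFP UMI, and Mup9 in the other at -0.0099 under the median depth. The female-biased median was -0.0012 with the top 25% as members, and between members -0.80 at a minimum of 1 UMI and -1.33 under a stricter cell filter.

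The cause of these shifts was not tested. Among single genes and list medians 2869 values stayed within the interval of the main value, 2365 moved beyond it, and the 55 that turned sign from at least 2-fold (0.5 on the log2 scale for a list) are those given above. No paired analysis was possible because each group is 1 library. Depth limits genes near the floor, such as Slc1a2, Tbx3 and Lgr5.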

Other observations

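The clock list holds outputs and also core clock genes such as Arntl, so its medians mix both kinds. Its genes went both ways between members and the rest within each library. They ran from -0.87 (Dbp) to 0.67 (Usp2) in the DDC library and from -0.90 (Nr1d1) to 1.29 (Arntl) in the other, with medians of 0.08 and 0.11 over 11 genes. In members of the DDC and cMet library 7 of 11 were at least 2-fold higher than in DDC members, against 4.83% of all genes tested. The list's median was 2.09 between members and 2.07 between the rests. Arntl, the clock activator, ran against the list, with 18.6 CPM in DDC members and 1.11 CPM in the others. Genes of haem synthesis and breakdown, the pathway that DDC acts on, had medians of 0.05 and -0.02 between members and the rest, with Blvrb, a biliverdin reductase, lower in both (303 against 446 CPM and 90.5 against 234 CPM).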
